A study of Arabidopsis thaliana with 6 samples.

Results

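Genes that build, acetylate, loosen and remodel the polysaccharides of the plant cell wall were examined in mature rosette leaves of Arabidopsis thaliana. Members were selected by gene symbol, as names that begin with EXP, EXL, XTH, XTR, FLA, AGP, CSL, CESA, TBL, GAUT or PME, on probe sets that the platform annotation gives to exactly 1 gene. This gave 63 of the 13356 genes so annotated. One of them, PMEAMT, shares only letters with the pectin methylesterases and encodes a phosphoethanolamine N-methyltransferase of lipid metabolism, so it was kept apart and 62 wall genes were described. They comprised 18 expansins (10 alpha, 4 beta and 4 expansin-like genes), 9 xyloglucan endotransglucosylase/hydrolases (XTH), 8 cellulose synthase-like genes (2 CSLA, 5 CSLC and 1 CSLD), 22 trichome birefringence-like genes (TBL), 1 galacturonosyltransferase gene (GAUT15) and 4 pectin methylesterase genes (PME). No CESA, FLA, AGP or XTR gene met the rule, and these families are not analysed here.

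The leaves came from wild-type plants (WT) and from the mlo2 mlo6 mlo12 triple mutant, both grown under conditions labelled as normal, with no pathogen named, and taken at an age of 5, 6 or 7 weeks from sowing. MLO genes encode membrane proteins, and loss of the mutated ones makes leaves resistant to powdery mildew fungi, which enter through the epidermal wall. A single Affymetrix array stood for each combination, which makes 6 arrays, 3 per genotype and 2 per age. The labels do not say how many plants were pooled or whether arrays came from separately grown plants. No combination was repeated, so the p-values measure no spread between replicates. For the genotype and age differences, the error of a gene comes in part from how its genotype difference varied between ages. The eBayes step of limma draws it toward a value estimated from all probe sets. An SE given below is therefore not the spread of that gene alone.

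In a growing leaf the wall is a network of cellulose held by xyloglucan and other matrix glycans in a gel of pectin. CSLC enzymes make the glucan backbone of xyloglucan, CSLA enzymes make mannans, and GAUT enzymes extend pectin. TBL proteins acetylate several of these polymers. Expansins loosen the contacts between polymers without cutting them, XTH enzymes cut and rejoin xyloglucan, and pectin methylesterases remove methyl groups from pectin, which alters its stiffness and its access to degrading enzymes.

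Values are deposited log2 values after RMA, which corrects background, equalises the distributions of the arrays and summarises each probe set. They ran from 1.72 to 13.4. The median of the probe set means was 3.84, and 27 of the 62 wall genes had a mean at or above it while 35 lay below. The dim members varied little: their median range over the 6 arrays was 0.42, against 1.11 for the 27 brighter members. RMA compresses differences near background, so small differences of dim members are only weakly measured. The leaf label was checked with 4 photosynthesis genes, RCA, PRK, SBPASE and PSAN, whose means (10.4 to 12.4) exceeded those of at least 98.7% of probe sets. The root gene PYK10 and the stem cell gene CLV3 averaged 2.53 and 2.55. The guard cell lineage genes FMA, SPCH and MUTE averaged 3.76, 2.34 and 2.96 and the mitotic kinase gene AUR1 2.95. Of 21 secondary wall and vascular markers, 0 had a single-gene probe set. MLO2, MLO6 and MLO12 had none either, so the mutated genes gave no check of the genotype labels.

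The arrays also differed in readings other than those of the wall genes. The 6-week WT array correlated least with the others (mean r = 0.970, against 0.975 to 0.982) and was the highest of the 6 arrays for 21 of the 62 wall genes, where 29.7% of all probe sets had their highest value there. Poly-A spike-in controls averaged 4.03 and 4.21 at 5 weeks, 5.16 and 4.46 at 6 weeks and 5.20 and 4.84 at 7 weeks in WT and mutant. A 25S ribosomal RNA probe set read 7.51 and 6.59, 4.08 and 5.39, and 3.87 and 5.70 at the same ages. At 6 and 7 weeks the mutant arrays were thus lower in the controls and higher in this RNA, and at 5 weeks the reverse held. The part of these differences in the results below was not tested. In whole leaves, fewer cells of a type and less RNA per cell cannot be told apart.

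The first comparison asked which wall genes differed between mutant and WT leaves over the 3 ages. Of the 4 pectin methylesterase genes 3 read higher in the mutant at every age, as did 12.2% of all probe sets. EXPA8, the expansin of highest probe signal, read lower at every age, as did 16.7% of all probe sets. None of these differences passed the threshold: with limma, 0 of 62 wall genes had an adjusted p under 0.05, as for all 22746 probe sets tested (0.0%). At an unadjusted p under 0.05 there were 5 wall genes (8.06%), where 6.52% of all probe sets passed. Of these, 4 were higher in the mutant (3.93% of all probe sets) and 1 was lower (2.59%).

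ATPMEPCRB (AT4G02330), a pectin methylesterase also named PME41, read 3.92, 3.52 and 3.27 in WT against 4.64, 5.23 and 4.74 in the mutant at 5, 6 and 7 weeks. All 3 mutant arrays lay above all 3 WT arrays. The estimate was 1.30 ± 0.22 (SE, log2, 3 arrays per genotype), or 2.46-fold, with an adjusted p of 0.690. It was the only wall gene with an estimate of at least 1 in either direction, a size that 0.484% of all probe sets reached.

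PMEPCRF (AT5G53370) had the highest probe signal of the 4 methylesterase genes. Its values were 7.50, 7.39 and 7.21 in WT against 8.15, 8.68 and 7.80 in the mutant. The groups did not overlap, and the 6-week mutant array was the highest. The mutant exceeded WT by 0.84 ± 0.18 (1.79-fold, adjusted p = 0.690), with differences of 0.64, 1.29 and 0.59 at 5, 6 and 7 weeks.

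PME61 (AT3G59010), also named PME35, read 5.27, 5.19 and 5.43 in WT against 5.90, 5.72 and 5.83 in the mutant. Within each genotype its arrays spanned little, and the gap between genotypes was similar at each age. The estimate was 0.51 ± 0.11 (1.43-fold, adjusted p = 0.690). The other member of the family, ATPMEPCRD (AT2G43050), went the other way at 5 and 6 weeks: it read 3.87, 4.06 and 3.58 in WT against 3.38, 3.54 and 3.62 in the mutant, an estimate of -0.33 ± 0.16. The family's median estimate was 0.68, against -0.025 for all probe sets.

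EXPA8 (AT2G40610), an alpha-expansin, read 9.21, 9.84 and 9.53 in WT against 8.54, 9.06 and 8.48 in the mutant. Every mutant array was below every WT array, and in both genotypes the 6-week array was the highest. The mutant was at -0.84 ± 0.13 relative to WT (1.78-fold lower, adjusted p = 0.690), and the difference was -0.67, -0.78 and -1.06 at 5, 6 and 7 weeks. Of the other 9 alpha-expansins, 7 had estimates below 0, and all 10 together ranged from -0.84 to 0.27 with a median of -0.087. Estimates were below 0 for 56.3% of all probe sets, and for 7634 of the 11373 below the median level. Only 4 of the 10 alpha-expansins were at or above that level, so the count does not set the family apart.

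EXLA1 (AT3G45970), an expansin-like gene, read 4.50, 4.97 and 4.57 in WT against 5.53, 5.06 and 5.39 in the mutant. The groups just failed to overlap: the lowest mutant value, at 6 weeks, was 0.09 above the WT value of that age. The estimate was 0.64 ± 0.21 (1.56-fold, adjusted p = 0.754). EXLA3, 2 loci away on the same chromosome, was dim and had an estimate of -0.11 ± 0.13. EXLA2, a gene whose loss is known to increase resistance to a necrotrophic fungus in Arabidopsis, was at 0.11 ± 0.13.

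**Figure D1:**
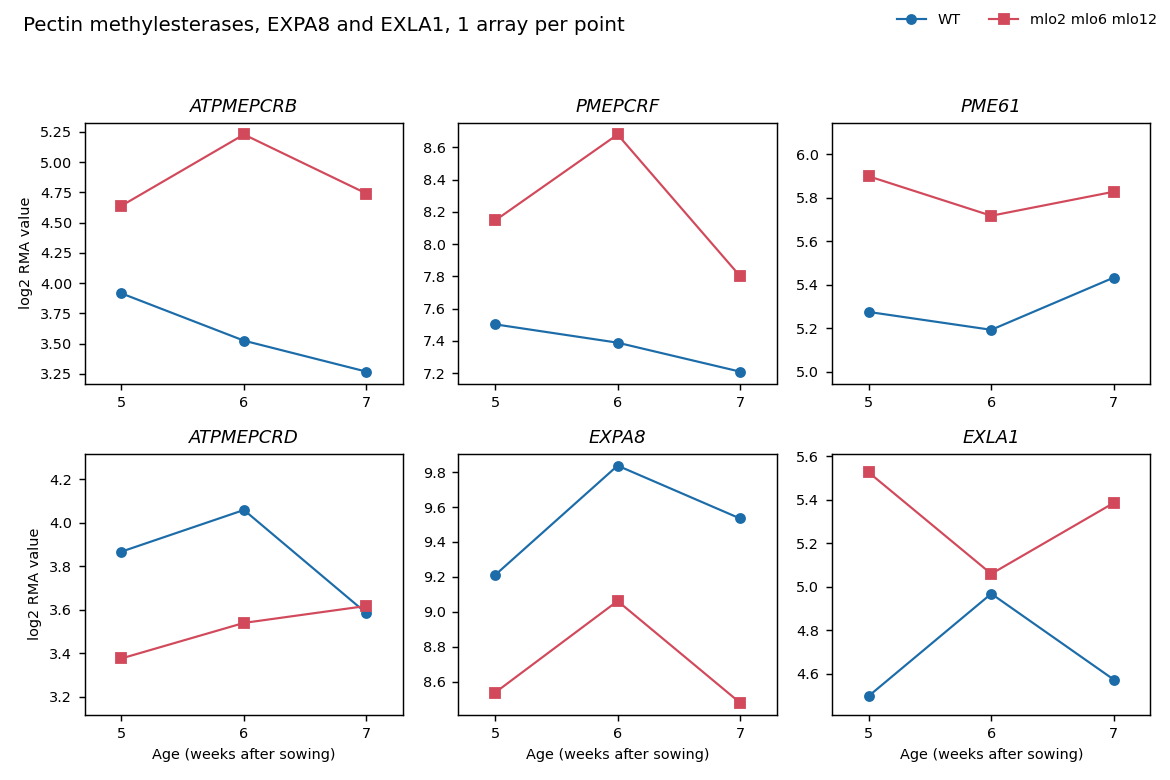
Log2 RMA values of the 4 pectin methylesterase genes, EXPA8 and EXLA1 against age in weeks, 1 point per array, with WT as circles and the mlo2 mlo6 mlo12 mutant as squares. Each panel has its own scale. In 5 of the 6 panels the genotypes do not overlap: the mutant lies above WT for ATPMEPCRB, PMEPCRF, PME61 and EXLA1 and below it for EXPA8, while ATPMEPCRD overlaps.

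Counted over all wall genes, the 3 mutant arrays lay above the 3 WT arrays for 4 members (ATPMEPCRB, PMEPCRF, PME61 and EXLA1), where 3.42% of all probe sets did so. They lay below for another 4 (EXPA8, TBL21, TBL41 and XTH26), where the background was 5.5%. The last 3 were dim, with mean values of 2.50, 3.64 and 2.69. The mutant was higher at all 3 ages for 10 wall genes (12.2% of all probe sets) and lower at all 3 for 11 (16.7% of all probe sets). Such counts amount to 16.1% and 17.7% of the members and do not set wall genes as a whole apart.

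In the remaining families the genotype estimates were mostly small beside their errors. Of the CSLA genes, CSLA03 was at 0.37 ± 0.19 and CSLA01 at 0.11 ± 0.13. The 4 beta-expansins ranged from -0.31 to 0.09 with a median of -0.18, 3 of them below 0. The 9 XTH genes ranged from -0.18 to 0.27 with a median of 0.011, and the largest was XTH16 at 0.27 ± 0.11. The 22 TBL genes ranged from -0.33 (TBL39) to 0.68 ± 0.51 (TBL26) with a median of -0.050, 9 above and 13 below 0. The 5 CSLC genes, with a median of -0.18, included ATCSLC08 at -0.25 ± 0.11 and CSLC5 at -0.29 ± 0.14. TBL25, a mannan acetyltransferase, was at -0.23 ± 0.12. Without either 7-week array CSLC5 and TBL25 were both at -0.15. GAUT15 was at 0.09 ± 0.11 and CSLD2 at -0.01 ± 0.11. Over all 62 genes 27 estimates were above 0 (43.7% of all probe sets) and 35 below (56.3%), with a median of -0.041. The smallest adjusted p in any of these families was 0.764.

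**Figure D2:**
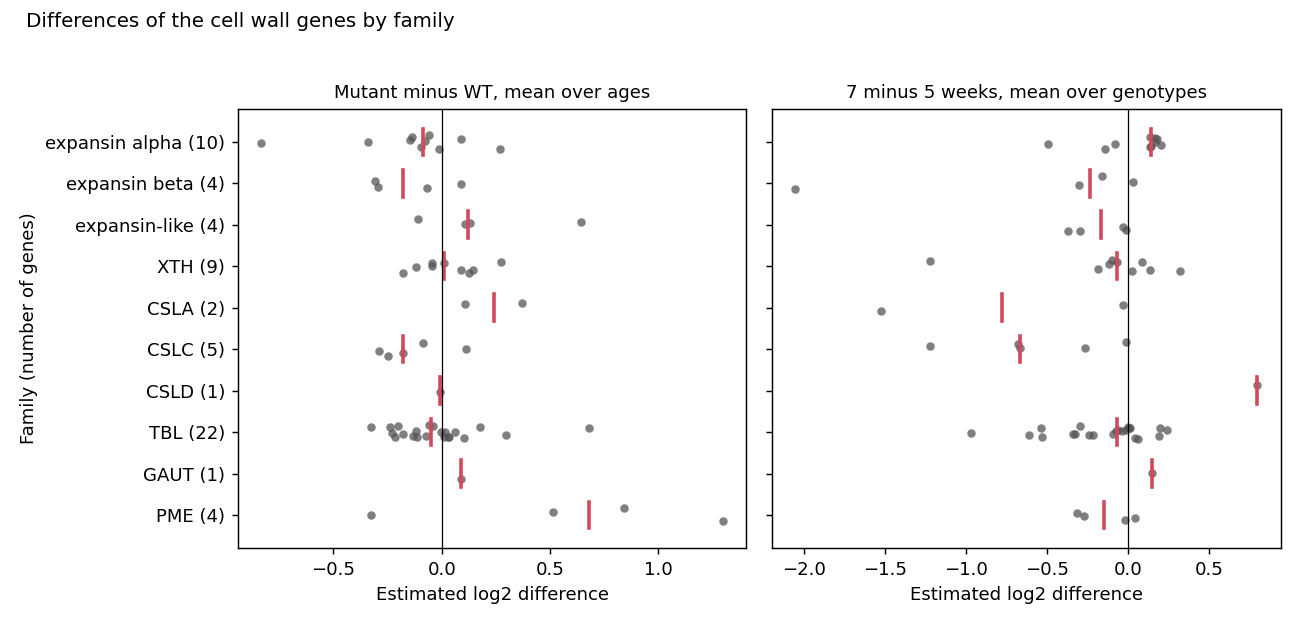
Estimated log2 differences of the 62 wall genes by family, as mutant minus WT averaged over ages (left) and as 7 minus 5 weeks averaged over genotypes (right). Points are genes, spread vertically within a family for visibility, and bars are family medians. The PME median is 0.68 on the left, and the CSLA and CSLC medians are -0.78 and -0.67 on the right, while the other families with more than 1 gene have medians between -0.24 and 0.24 in both panels.

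The second comparison asked how the wall genes differed with leaf age. Most xyloglucan synthase genes, the mannan synthase gene CSLA03 and the beta-expansin EXPB1 read lower at 7 than at 5 weeks, while CSLD2 read higher. For 7 minus 5 weeks, 0 of 62 wall genes passed an adjusted p of 0.05 in limma, as for all probe sets (0.0%). At an unadjusted p under 0.05 there were 10 wall genes, a share of 16.1% against 16.2% of all probe sets. Without the 7-week mutant array there were 3, where 6.97% of all probe sets passed. The 10 were 9 lower genes (8.34% of all probe sets) and 1 higher (7.89%). Estimates were below 0 for 40 wall genes (51.4% of all probe sets) and above 0 for 22 (48.6%). A size of at least 1 was reached by 4, CSLA03, CSLC5, EXPB1 and XTH32, where 4.6% of all probe sets reached it and 2.34% in the downward direction, in which all 4 lay. Finally, 26 members were lower at 7 weeks in both genotypes (34.2% of all probe sets) against 11 that were higher in both (31.8%).

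CSLC5 (AT4G31590), one of the xyloglucan backbone synthases, read 5.19, 3.80 and 4.22 in WT against 5.13, 3.56 and 3.65 in the mutant at 5, 6 and 7 weeks. Both 5-week arrays stood well above all later ones. The 7 minus 5 week estimate was -1.22 ± 0.17 (2.34-fold lower, adjusted p = 0.0901) and the 6 minus 5 week estimate -1.48 ± 0.17 (adjusted p = 0.0972). CSLC04 (AT3G28180), which had the highest probe signal of the group, read 7.81, 6.48 and 7.10 in WT against 7.65, 7.05 and 7.03 in the mutant, again with both 5-week arrays on top. Its estimates were -0.67 ± 0.22 at 7 weeks and -0.96 ± 0.22 at 6 weeks.

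ATCSLC08 (AT2G24630) read 3.74, 3.06 and 3.11 in WT against 3.49, 2.93 and 2.75 in the mutant, with an estimate of -0.68 ± 0.14 for 7 minus 5 weeks. Its mean of 3.18 was below the median level. CSLC6 read 5.52, 5.13 and 5.46 in WT against 5.61, 4.84 and 5.13 in the mutant. For CSLC6 the 7-week WT array had come close to the 5-week one, and the 7 minus 5 week estimate was -0.27 ± 0.16. CSLC12 was dim and flat, between 2.45 and 2.76 in all arrays. Thus 4 of the 5 CSLC genes had both 5-week arrays above all 4 later arrays, as did 15.1% of all probe sets. The 5-week arrays stood apart in general: on the first principal component they lay at -42.5 and -40.9, against 2.19 to 45.2 for the other 4, and a 25S ribosomal RNA probe set read 7.51 and 6.59 against 3.87 to 5.70. The part of this in the age differences was not tested.

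CSLA03 (AT1G23480) belongs to the mannan synthase group, and its mean of 3.47 was below the median level. It read 4.08, 3.06 and 2.72 in WT against 4.84, 2.98 and 3.14 in the mutant. Both 5-week arrays were above the 4 later ones, and the 5-week mutant array was the highest. The estimates were -1.53 ± 0.23 for 7 minus 5 weeks (2.88-fold lower, adjusted p = 0.0912) and -1.44 ± 0.23 for 6 minus 5 weeks (adjusted p = 0.105). The other member, CSLA01, stayed between 2.66 and 3.002.

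CSLD2 (AT5G16910), of a group known for wall synthesis in tip-growing root hairs, went the other way. It read 5.13, 5.38 and 5.92 in WT against 5.16, 5.29 and 5.96 in the mutant. The genotypes were nearly the same at each age, and the 7-week arrays were highest in both. The 7 minus 5 week estimate was 0.80 ± 0.13 (1.74-fold, adjusted p = 0.0970). It was the only wall gene with an unadjusted p under 0.05 in the upward direction.

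**Figure D3:**
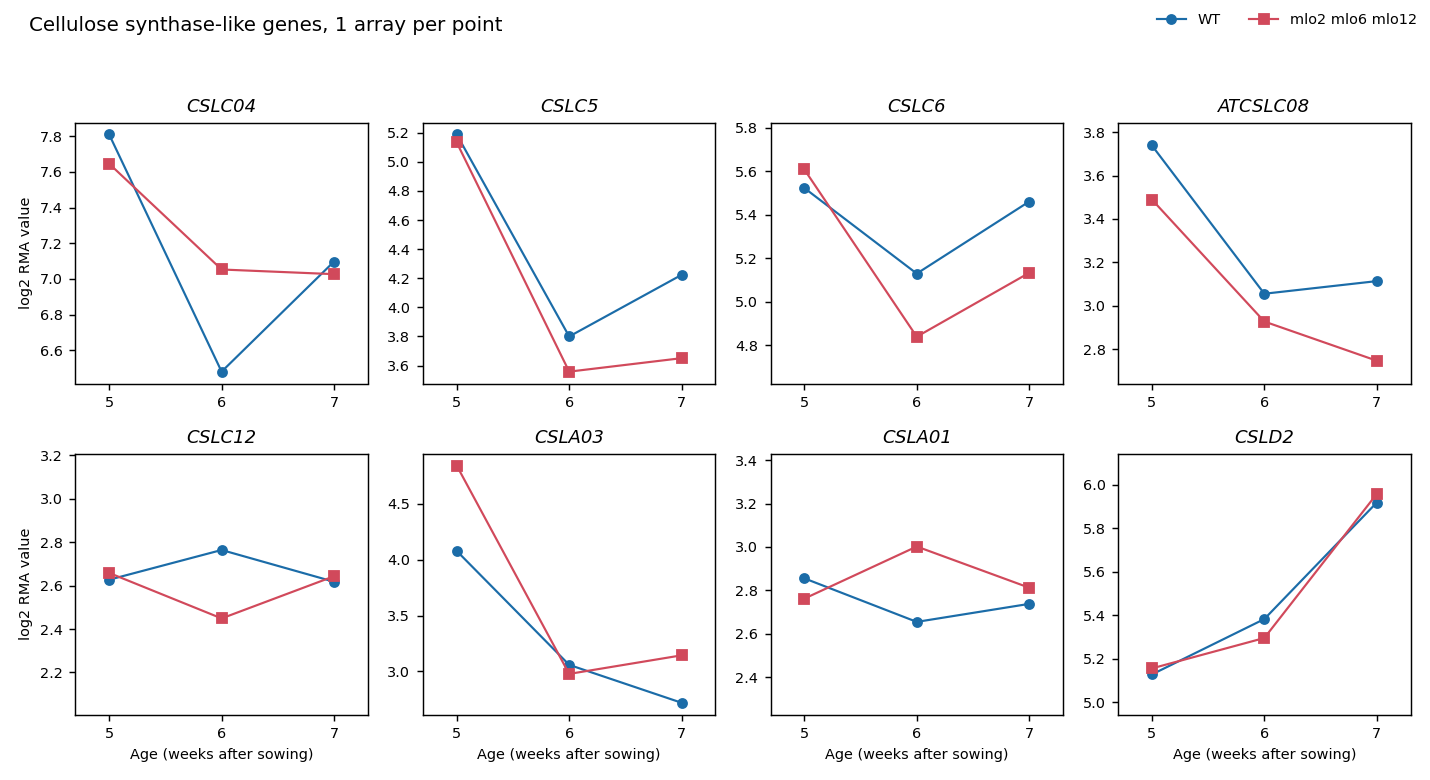
Log2 RMA values of the 8 cellulose synthase-like genes against age in weeks, 1 point per array, with WT as circles and the mlo2 mlo6 mlo12 mutant as squares; each panel has its own scale. Both 5-week arrays lie above all later arrays for CSLC04, CSLC5, CSLC6, ATCSLC08 and CSLA03, CSLC12 and CSLA01 are flat, and CSLD2 is highest at 7 weeks in both genotypes.

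The calls for these age estimates, though not the estimates, depended on how the error was taken. Without the 6-week arrays, which enter the error of the 7 minus 5 week difference but not its value, 5 wall genes passed in limma, and all were of the cellulose synthase-like family: CSLA03 (adjusted p = 0.0195), CSLC5 (0.0273), CSLD2 (0.0325), ATCSLC08 (0.0464) and CSLC04 (0.0476). In that fit 7.72% of all probe sets passed, and the members' share was 8.06%. With a variance trend (limma-trend) CSLA03 and CSLC5 passed (1.13% of all probe sets), and with dim probe sets left out CSLA03 did (1.95%). The labels name no harvest day or batch, and the effect of whatever the 2 arrays of one age had in common cannot be told apart from that of age.

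The pattern of high values at 5 weeks was not general to the wall genes. Both 5-week arrays exceeded all 4 later arrays for 10 members, where 15.1% of all probe sets did so, and both were below all later arrays for 3 members (14.9% of all probe sets). Besides the 5 synthase genes, the 10 were 4 TBL genes (TBL23, TBL25, TBL28 and TBL36) and the beta-expansin EXPB5. PMEAMT, the member set apart, showed the same shape, with 8.59, 7.29 and 7.31 in WT against 8.52, 7.48 and 7.12 in the mutant. All 4 photosynthesis marker genes also had 7 minus 5 week estimates below 0, from -1.05 ± 0.23 for SBPASE to -0.30 ± 0.14 for PSAN, and their part in the age differences was not tested.

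Among the TBL genes, 15 of 22 had 7 minus 5 week estimates below 0 (51.4% of all probe sets), with a median of -0.069 against -0.0068 for all probe sets. TBL25 (AT1G01430) read 7.82, 6.94 and 7.45 in WT against 7.75, 6.71 and 7.06 in the mutant. The 6-week arrays were the lowest in both genotypes, and the estimates were -0.96 ± 0.15 for 6 minus 5 weeks (1.95-fold lower, adjusted p = 0.1001) and -0.53 ± 0.15 for 7 minus 5 weeks. TBL23, also a mannan acetyltransferase, read 5.24, 4.89 and 4.91 in WT against 5.03, 4.96 and 4.71 in the mutant, an estimate of -0.33 ± 0.14 for 7 minus 5 weeks. TBL37 was at -0.54 ± 0.15 and TBL45 at -0.62 ± 0.25 for the same difference.

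Genes for xylan acetylation had unlike values, but some were dim. TBL28 (AT2G40150) was at -0.97 ± 0.30 for 7 minus 5 weeks and is described below. TBL30, its neighbour on the chromosome, ranged over only 0.14 in the 6 arrays, at a dim mean of 2.57. TBL32, TBL34 and TBL35 had estimates of 0.06 ± 0.23, 0.01 ± 0.21 and 0.19 ± 0.17. TBL32 and TBL34 were below the median level, with means of 3.40 and 2.50. Flat values of such dim genes do not show that they differed from TBL28. The probe set of TBL32 is of a type that can detect more than 1 transcript.

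The wall-loosening families had no shared direction with age. EXPB1 (AT2G20750), the beta-expansin of highest probe signal, read 6.16, 6.68 and 5.16 in WT against 7.21, 5.82 and 4.10 in the mutant. Its 7-week array was the lowest in both genotypes. The estimate was -2.06 ± 0.55 (4.16-fold lower, adjusted p = 0.184), the largest of any wall gene for this difference. Of the 10 alpha-expansins, 7 had estimates above 0 (48.6% of all probe sets), the largest being 0.20, and EXPA15 was the lowest at -0.49 ± 0.26. The 4 expansin-like genes all had estimates below 0 (51.4% of all probe sets), from -0.37 to -0.011.

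XTH32 (AT2G36870) was the only XTH gene above the median level. It read 7.03, 7.43 and 6.35 in WT against 8.16, 6.71 and 6.38 in the mutant. The 7-week arrays were alike and the lowest of their genotype, and the estimate was -1.23 ± 0.45 (2.34-fold lower, adjusted p = 0.289). The other 8 XTH genes had means between 2.25 and 3.21 and 7 minus 5 week estimates between -0.19 and 0.32, the upper end being XTH29. Among them were the tandem pair XTH18 and XTH19, and XTH33, an enzyme of the cell surface, at -0.12 ± 0.13.

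At 6 weeks the single WT array read high for most expansins. All 10 alpha-expansins and 17 of the 18 expansin genes read higher at 6 than at 5 weeks in WT, where 53.1% of all probe sets did, and 7 of the 18 did so in the mutant (51.7% of all probe sets). The WT share depended on signal: 7294 of the 11373 probe sets below the median level read higher at 6 weeks and 4791 of the 11373 others, and 10 of the 18 expansins are below it. The WT counts rest on the array that correlated least with the others, and the mutant count does not use it. The 6-week WT array was the highest of the 6 for 6 of the 10 alpha-expansins, as for 29.7% of all probe sets. EXPA4 (AT2G39700) read 5.03, 6.54 and 5.29 in WT against 5.56, 5.41 and 5.60 in the mutant, so that a single array lay apart from 5 similar ones. EXPA9 (AT5G02260) had the same shape, with 2.996, 4.41 and 3.10 in WT against 3.33, 3.46 and 3.56 in the mutant.

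EXPA16 (AT3G55500), by contrast, read highest at 6 weeks in both genotypes, with 3.51, 4.54 and 3.53 in WT against 3.58, 4.82 and 3.98 in the mutant. The 6 minus 5 week estimate was 1.14 ± 0.15 (2.20-fold, adjusted p = 0.0984). EXPA8 had an estimate of 0.58 ± 0.15 for the same difference, TBL43 one of 0.42 ± 0.14 and XTH29 one of 0.39 ± 0.13. For 6 minus 5 weeks 0 of 62 wall genes passed an adjusted p of 0.05 in limma (0.0% of all probe sets). At an unadjusted p under 0.05 there were 4 higher (8.12% of all probe sets) and 6 lower (10.4%), together 16.1% of members against 18.5% of all probe sets. With limma-trend CSLA03 and CSLC5 passed (0.29% of all probe sets). Without the 6-week mutant array 8 did (15.5%): EXPA4, EXPA9, EXPA16, CSLA03, CSLC04, CSLC5, TBL25 and TBL39. The root hair expansin genes EXPA7 and EXPA18 stayed between 2.83 and 3.66 in all arrays.

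The third comparison concerned how the genotype difference varied with age. Several members were higher in the mutant at 5 weeks and lower or equal by 7 weeks, among them EXPB1, TBL28, XTH32 and TBL26. For the change of the difference from 5 to 7 weeks, 0 of 62 wall genes passed in limma (0.0% of all probe sets), and 1, TBL28, had an unadjusted p under 0.05, where 1.02% of all probe sets did. The typical error was large, with a median SE of 0.40 over the wall genes. The model takes age as a straight line. A bend at 6 weeks shared by both genotypes thus counts as error. For CSLC5, lowest at 6 weeks in both genotypes, the SE was 1.02, against 0.14 for its genotype difference. With age as a factor 0 wall genes passed, and 3 had an unadjusted p under 0.05 (1.13% of all probe sets). The count of 0 does not show that genotype differences were the same at each age.

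TBL28, a xylan acetyltransferase, read 4.19, 4.11 and 3.81 in WT against 4.81, 4.13 and 3.25 in the mutant. The mutant was above WT at 5 weeks, equal at 6 and below at 7. The difference went from 0.62 to 0.02 to -0.56, and its change over the 2 weeks was -1.19 ± 0.30 (adjusted p = 1). EXPB1, whose 6 values are given above, had differences of 1.04, -0.86 and -1.06, a change of -2.10 ± 0.87. Its 7 minus 5 week difference was -3.11 in the mutant and -1.004 in WT. In the mutant 5 wall genes were lower at 7 than at 5 weeks by at least 1 (2.93% of all probe sets), EXPB1, XTH32, CSLA03, TBL28 and CSLC5, and in WT 2 were (2.66%), CSLA03 and EXPB1.

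TBL26 (AT4G01080), a mannan acetyltransferase, read 4.21, 4.34 and 5.67 in WT against 6.40, 4.45 and 5.42 in the mutant. The 5-week mutant array was 2.19 above WT, the largest difference of any wall gene at a single age, while at 6 and 7 weeks the genotypes were close. The change was -2.45 ± 1.29. XTH32 was 1.12 above WT at 5 weeks, 0.72 below at 6 weeks and 0.03 above at 7 weeks, a change of -1.09 ± 0.79. EXPA15 (AT2G03090) went from 0.21 to -0.46 and -0.77, and the dim genes EXPB2 and TBL15 had changes of -0.81 ± 0.32 and -0.72 ± 0.36. Single arrays weighed heavily on these values. Without the 5-week WT array the change was -0.06 for EXPB1, -0.29 for EXPA15, -0.53 for EXPB2 and -1.23 for TBL15, and without the 7-week WT array it was -4.15, -1.68, -1.08 and -0.21.

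All 4 beta-expansins had changes below 0 (50.0% of all probe sets), with a median of -0.69, against a median of -0.00036 for all probe sets. They ranged from -2.10 for EXPB1 to -0.025 ± 0.29 for EXPB5, and only 2 of the 4 were at or above the median level. In the other direction ATPMEPCRB had a change of 0.75 ± 0.52, ATPMEPCRD one of 0.52 ± 0.39, EXLA3 one of 0.31 ± 0.41, XTH26 one of 0.26 ± 0.29 and TBL20 one of 0.22 ± 0.35. Of these, all but XTH26 turned in direction when 1 array was left out, and XTH26 ranged from 0.048 to 0.46. Over all 62 genes 27 changes were above 0 (50.0% of all probe sets) and 35 below (50.0%). A change of -1 or beyond was estimated for 4 (EXPB1, TBL26, TBL28 and XTH32; 1.1% of all probe sets) and one of at least 1 for 0 (1.66%).

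**Figure D4:**
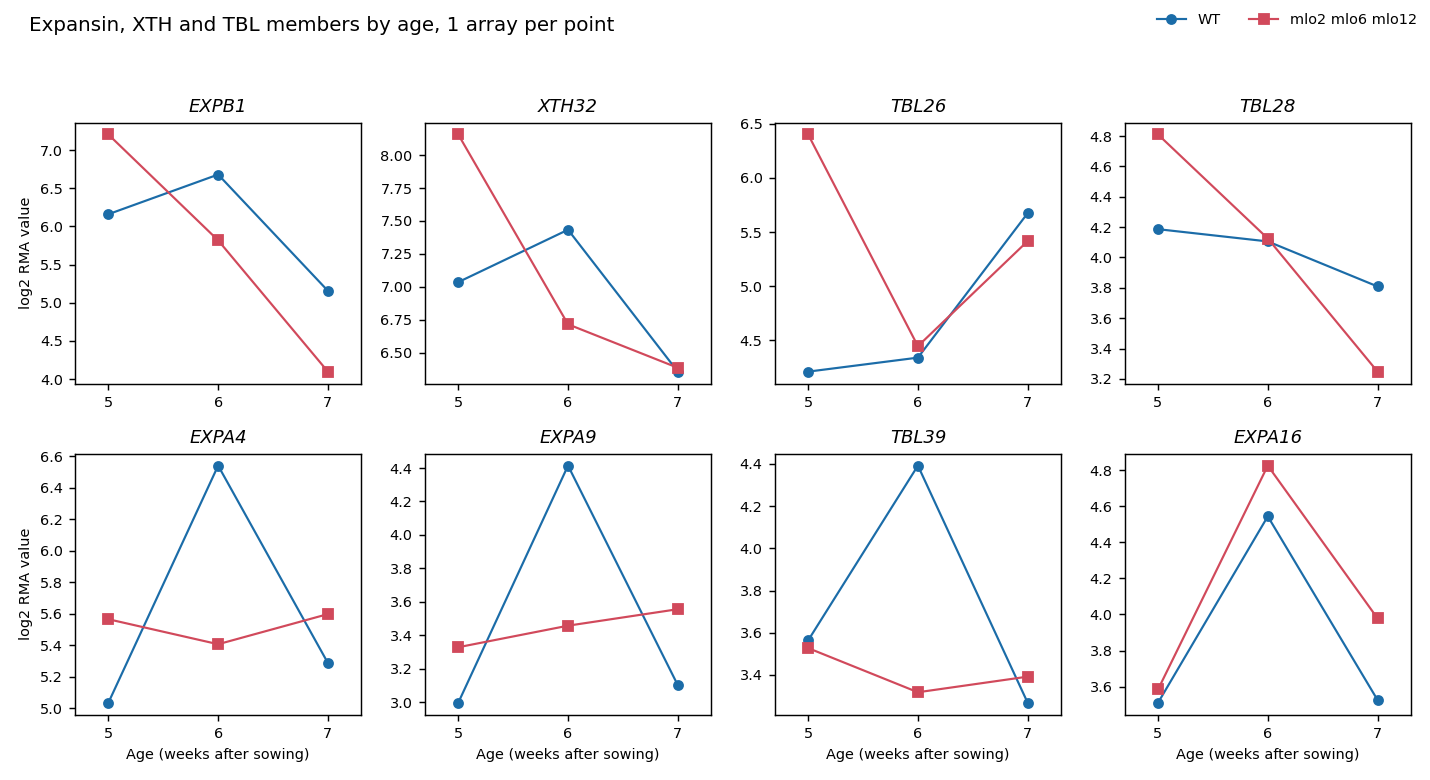
Log2 RMA values of 8 expansin, XTH and TBL genes against age in weeks, 1 point per array, with WT as circles and the mlo2 mlo6 mlo12 mutant as squares; each panel has its own scale. EXPB1, XTH32, TBL26 and TBL28 (top) are higher in the mutant at 5 weeks; EXPA4, EXPA9 and TBL39 (bottom) have 1 high array, WT at 6 weeks; EXPA16 is highest at 6 weeks in both genotypes.

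At single ages each difference rests on 1 array per side and has no test. At 5 weeks 4 wall genes were at least 1 log2 unit higher in the mutant (TBL26, XTH32, EXPB1 and EXLA1), where 0.875% of all probe sets were, and 0 were lower by as much (0.431%). At 6 weeks ATPMEPCRB (1.70) and PMEPCRF (1.29) were higher (2.96%), and EXPA4 (-1.13) and TBL39 (-1.07) were lower (1.97%). TBL39 read 4.39 in the 6-week WT array and 3.27 to 3.56 in the other 5. At 7 weeks ATPMEPCRB was higher by 1.47 (1.43% of all probe sets), and EXPA8 (-1.06) and EXPB1 (-1.06) were lower (0.418%). EXLB1, which read 5.50, 6.23 and 5.02 in WT against 5.76, 5.75 and 5.64 in the mutant, was 0.62 above WT at that age.

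Family medians at single ages, each from 1 array per side and not tested, were as follows. The beta-expansins had a median mutant minus WT difference of 0.42 at 5 weeks, -0.47 at 6 weeks and -0.27 at 7 weeks, and the expansin-like genes one of 0.31, -0.15 and 0.37. The PME genes kept a positive median, at 0.63, 0.91 and 0.49. That of the CSLC genes was -0.055, -0.24 and -0.33, and that of the TBL genes -0.034, 0.021 and -0.079. The corresponding medians over all probe sets were -0.018, -0.025 and -0.021. GAUT15 read 4.38, 4.36 and 4.56 in WT against 4.43, 4.58 and 4.55 in the mutant, a span of 0.22 over the 6 arrays.

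Few other wall genes could be named. Of 80 entries in lists of xyloglucan, pectin, xylan, cellulose, callose, integrity-sensing and structural genes, 4 had a probe set of their own, and 0 of the 4 passed in limma in either direction. The receptor kinase THE1, which senses wall damage, read 4.50, 4.05 and 4.05 in WT against 5.22, 4.09 and 4.22 in the mutant. It was highest at 5 weeks in both genotypes, with an estimate of -0.73 ± 0.21 for 7 minus 5 weeks. FER, a receptor kinase of the same family, was at -0.59 ± 0.30, COB, a protein that orients cellulose, at -0.33 ± 0.18, and the polygalacturonase ADPG1 was at the lowest levels, between 2.07 and 2.20. Their mutant minus WT estimates lay between -0.09 and 0.31.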

How the data were processed

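The 6 arrays measured biotin-labelled cRNA from total leaf RNA. The deposited log2 values were made by the authors with RMA, per the submitters' processing notes; no version is given in the sources used here. That they are on a log2 scale follows from their range. Scanner intensities were not used. Precision is limited by the number of arrays.

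Of 22810 probe sets, 64 controls were set aside and 22746 were tested. The annotation gave 13513 of them (59.4%) to 1 gene and 503 to several, and did not list 8730. For a gene on several probe sets, that of the highest mean was used; no member had more than 1. All 63 members had an entry in RefSeq (assembly TAIR10.1), used for locus tags and neighbours, and 0 symbols changed. RefSeq holds 234 genes whose symbol meets the rule. Another 2 probe sets with several genes matched and were left out.

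Models were fitted with limma 3.58.1 in R 4.3.3 to all 22746 probe sets, moderated with eBayes and adjusted by Benjamini-Hochberg (threshold 0.05): genotype plus age as a factor for the genotype and age differences, and genotype by age as a number for the interaction, each with 2 residual degrees of freedom. The code was tested on simulated data. Single ages rest on 1 array per side. Alternatives were limma-trend, no dim probe sets (highest value under the median), other scalings, other age terms and leaving out arrays.

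Named genes were the 5 of smallest p per direction and comparison, those with an estimate of at least 1 in absolute value for genotype or 7 minus 5 weeks, the 3 largest differences per direction at each age and the brightest of each family. Other members are named to account for their families, after their values were seen. Members and lists were chosen with earlier results of these data known. No family was tested as a set.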

Additional observations from a re-analysis of the deposited data

How the results depend on the processing

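For genotype, 0 wall genes passed under all alternatives run. EXPA8 (-0.92 to -0.72), ATPMEPCRB (1.097 to 1.59), PMEPCRF (0.62 to 0.97), PME61 (0.46 to 0.57) and EXLA1 (0.45 to 0.92) kept their directions. The number with an unadjusted p under 0.05 went from 5 to 9 without either or both 6-week arrays. The share of all probe sets went from 6.52% to 10.1%. With age as a factor, leaving out 1 array of an age also removes the other from the genotype estimate. For 7 minus 5 weeks, 0 wall genes passed with all arrays, 2 with limma-trend (CSLC5 and CSLA03), 1 with dim probe sets left out (CSLA03) and 5 without both 6-week arrays. Leaving out 1 array gave 0 to 5, the 5 being without either 6-week array. For this difference, leaving out 1 of the 6-week arrays is the same fit as leaving out both, not a separate check. For 6 minus 5 weeks, 2 passed with limma-trend (CSLC5 and CSLA03), and leaving out 1 array gave 0 to 8, the 8 being without the 6-week mutant array, when the estimate rests on the 6-week WT array alone. These alternatives used fewer arrays, another variance model or, with dim probe sets left out, 12581 instead of 22746 probe sets, and the cause was not tested. The number with an unadjusted p under 0.05 for 7 minus 5 weeks went from 10 to 3 without the 7-week mutant array. For the interaction, 0 passed under all alternatives run. The number with an unadjusted p under 0.05 went from 1 to between 0 and 10 with 1 array left out. The share of all probe sets went from 1.02% to between 0.233% and 17.2%. Directions turned without the 7-week WT array for ATPMEPCRD (-0.14), EXLA3 (-0.39) and TBL20 (-0.20). They also turned without the 5-week mutant array for ATPMEPCRB (-0.33), and without the 7-week mutant array for TBL20 (-0.067). The highest values with 1 array left out were 1.19, 1.02, 0.64 and 1.82 for ATPMEPCRD, EXLA3, TBL20 and ATPMEPCRB. EXPB1 ranged from -4.15 to -0.06 there, EXPA15 from -1.68 to -0.29, TBL15 from -1.23 to -0.21 and XTH26 from 0.048 to 0.46. For genotype, CSLC5 ranged from -0.41 to -0.15, TBL25 from -0.31 to -0.15 and ATPMEPCRD from -0.51 to -0.23. The 7 minus 5 week estimate ranged from -3.06 to -1.05 for EXPB1 and from -1.96 to -0.49 for XTH32, smallest in size without the 5-week mutant array. The 6 minus 5 week estimate of CSLC04 was -0.62 without the 6-week WT array, and the 6 minus 5 week estimate of EXPA9 from 0.10 (without the 6-week WT array) to 1.45. Limited to members at or above the median level, chosen after seeing the data, the median 7 minus 5 week estimate was -0.27 instead of -0.065. The adjusted p-values of these members were those of the main fit, where 0 wall genes passed. Their count of 0 was thus fixed in advance and is no check. The labels give no replicate numbers; the age term pairs the arrays of an age, and dropping it left the genotype counts at 0 after adjustment and 5 before.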
